A study of Mus musculus with 4 samples.

Results

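The genes described are 28 mouse genes of sterol synthesis and uptake, followed in liver RNA by step from acetoacetyl-CoA to cholesterol, together with regulators of the transcription factor SREBP2 and genes of sterol uptake and movement. They were chosen by name, with earlier results of these data known. An array probe was assigned to a gene when its accession mapped to that gene in RefSeq. All 28 were found among the 20882 genes that could be named on the array. They were read by 40 probes, and 39 of these were well above background on all 4 arrays by the scanner's own criterion. The brightest probe of each gene, which stands for the gene below, met that criterion on all 4 arrays for all 28 genes.

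The study crossed genotype with diet in male mice, with 1 single-colour Agilent array of liver RNA per group and 4 arrays in all. One pair of groups was wild type and the other was catalase knockout, that is, without the enzyme that removes hydrogen peroxide in peroxisomes. Within each genotype 1 group ate a normal diet with 18% of its calories from fat and the other a high-fat diet with 60.3%. Feeding lasted 11 weeks, between 29 and 40 weeks of age, in all groups. The labels name neither the strain nor the way catalase was deleted, and do not say whether an array carried RNA of 1 animal or of a pool. No value below has a replicate, so no comparison of 2 arrays carries a p-value.

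Cholesterol is built in the cytosol and the endoplasmic reticulum. Acetoacetyl-CoA is turned into HMG-CoA and mevalonate, mevalonate into isoprenoid diphosphates, these into squalene, and squalene is closed to lanosterol, which is trimmed to cholesterol. When membranes of the endoplasmic reticulum are poor in cholesterol, SCAP escorts SREBP2 to the Golgi, where it is cleaved. The freed part enters the nucleus and switches on most genes of the pathway through sterol regulatory elements, usually beside sites for the factors NF-Y and Sp1. INSIG proteins hold the complex back when sterols are plentiful. Liver is a main site of this synthesis.

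The DNA just before the start of 5 genes is printed to show what the promoters of genes with large falls on the high-fat diet look like. These are the members with 1 annotated start and the largest mean diet difference among those with a RefSeq promoter sequence (build GRCm38.p6), and the interval between Mvk and Mmab is added because both genes start from it. Capitals mark exact matches to CCAAT, the letters read by NF-Y, or to its reverse complement ATTGG, and to TCACNCCAC, a form of the sterol regulatory element. The sequences run 5′ to 3′ in the direction of the gene and end at the base before its annotated start. They lie at chr13:8885356-8885605 (+ strand) for Idi1, chrX:72918271-72918520 (+) for Nsdhl, chr5:4104698-4104947 (- strand) for Cyp51, chr13:119690101-119690350 (+) for Hmgcs1, chr19:6067851-6068100 (-) for Tm7sf2 and chr5:114444028-114444268 (+, the direction of Mvk) for the Mvk and Mmab interval.
Idi1: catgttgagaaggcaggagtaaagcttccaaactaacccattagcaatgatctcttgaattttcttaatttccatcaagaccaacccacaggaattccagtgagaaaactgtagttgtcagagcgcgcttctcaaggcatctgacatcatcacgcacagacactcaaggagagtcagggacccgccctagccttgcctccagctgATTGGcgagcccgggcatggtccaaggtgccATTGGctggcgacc
Nsdhl: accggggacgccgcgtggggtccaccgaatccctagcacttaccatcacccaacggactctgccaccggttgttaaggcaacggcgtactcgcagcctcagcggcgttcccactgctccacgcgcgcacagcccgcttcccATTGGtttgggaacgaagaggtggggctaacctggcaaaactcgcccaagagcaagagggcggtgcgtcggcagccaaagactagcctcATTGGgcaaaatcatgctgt
Cyp51: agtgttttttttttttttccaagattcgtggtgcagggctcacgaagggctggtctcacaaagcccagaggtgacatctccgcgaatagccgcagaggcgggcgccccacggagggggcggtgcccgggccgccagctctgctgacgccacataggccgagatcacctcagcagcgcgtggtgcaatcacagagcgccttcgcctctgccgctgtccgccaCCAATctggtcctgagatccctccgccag
Hmgcs1: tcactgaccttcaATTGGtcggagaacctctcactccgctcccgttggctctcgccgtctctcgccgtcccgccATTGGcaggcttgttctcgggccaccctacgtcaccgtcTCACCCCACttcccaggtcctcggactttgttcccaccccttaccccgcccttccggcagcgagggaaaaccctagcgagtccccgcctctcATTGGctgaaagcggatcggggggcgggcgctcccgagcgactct
Tm7sf2: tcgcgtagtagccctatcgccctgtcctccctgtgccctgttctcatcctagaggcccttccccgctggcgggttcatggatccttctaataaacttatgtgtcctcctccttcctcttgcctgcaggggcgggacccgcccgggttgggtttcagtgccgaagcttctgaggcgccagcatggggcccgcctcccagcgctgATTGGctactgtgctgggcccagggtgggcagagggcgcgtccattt
Mvk and Mmab interval: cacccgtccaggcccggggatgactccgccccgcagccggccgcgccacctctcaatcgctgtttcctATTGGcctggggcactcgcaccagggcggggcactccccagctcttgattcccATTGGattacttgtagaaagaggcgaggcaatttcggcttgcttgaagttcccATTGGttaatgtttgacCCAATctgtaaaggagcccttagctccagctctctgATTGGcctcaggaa
The Hmgcs1 sequence holds TCACCCCAC from 137 to 129 bases before the start, the only exact match to TCACNCCAC among the 24 members with a promoter sequence. In all, 1.44% of 27025 mouse genes had this match in a window of 300 bases, from 250 before to 50 after a start. No match says only that these letters are not in the window. CCAAT, on either strand, was found in the windows of 21 of the 24 members (87.5%) and of 41.1% of all genes. GGGCGG, the Sp1 letters on either strand, was found in 20 of 24 (83.3%) and in 38.2% of all genes. The base composition of the windows was not matched, so its part in these shares was not tested. No motif contains another, and 45 of the 49 CCAAT matches lay before the start. The 5 matches between Mvk and Mmab are counted for both genes.

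Mvk, mevalonate kinase, and Mmab, an enzyme that makes the cobalamin cofactor, are read away from each other from starts 241 bases apart. Their promoter windows share 259 bases. The printed interval holds 5 CCAAT matches, the most in any member's window. Of these, 4 are ATTGG in the direction of Mvk and follow each other at the same distance, 53 bases from one to the next. Neighbouring stretches, each taken from 5 bases before a match, are not copies of each other. Counting the shared ATTGG, 16 of 53 bases were identical in the first pair and 17 of 53 in the next. In the last pair, cut short by the end of the interval, 8 of 19 were. The same letters therefore stand before Mvk, which fell 2.58-fold with the high-fat diet in wild type, and before Mmab, which was lower by 1.65-fold, a size short of the 2-fold rule explained below. In the knockout Mmab fell 2.21-fold and Mvk, at 1.84-fold, was the one short of the rule. Which gene passed there depends on the probe. The second probe of Mvk was lower by 2.055-fold in the knockout, and the further probes of Mmab by 1.82-fold and 1.28-fold.

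**Figure D1:**
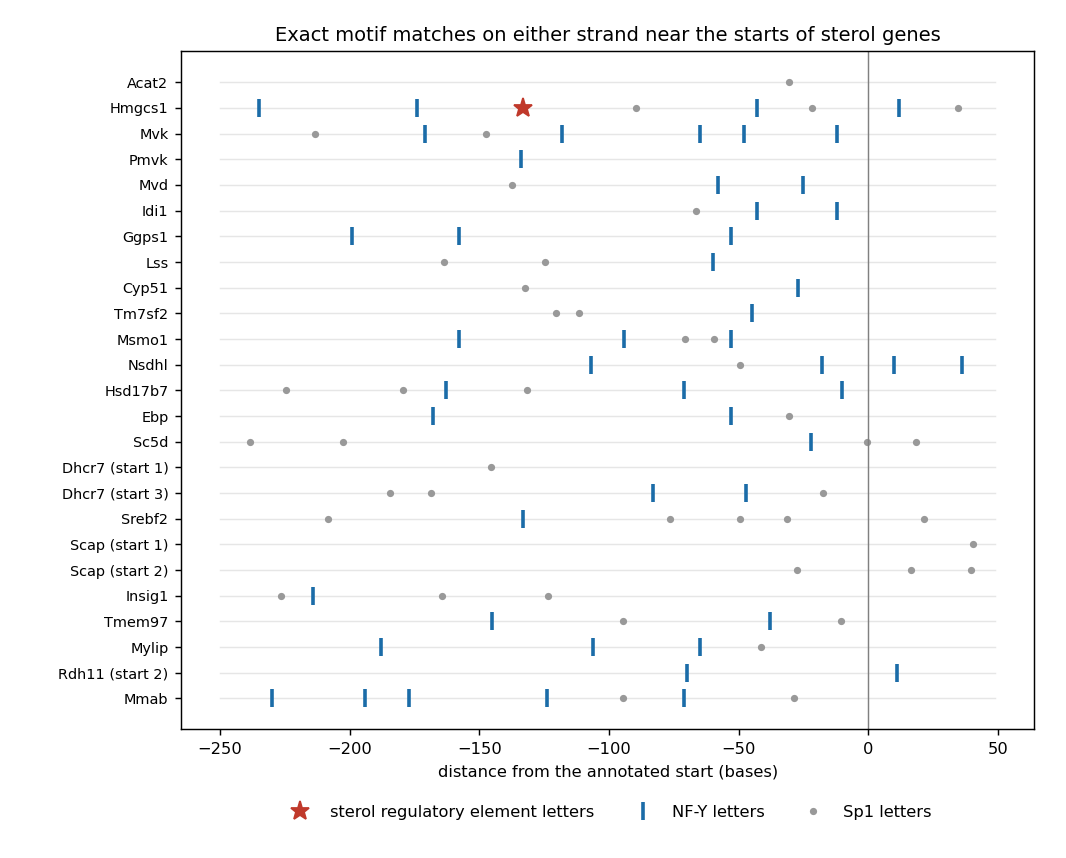
Exact matches to the sterol regulatory element, NF-Y and Sp1 letters on either strand, by distance in bases from the annotated start (0), for each promoter window of a member that held at least 1 match. Windows without any match (4 of 29) are not drawn, a gene with several starts has a line for each, and the single star marks Hmgcs1.

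CCAAT matches and the changes with diet can be set side by side. Among the 13 members with a promoter sequence that fell 2-fold or more with the high-fat diet in at least 1 genotype, 13 had a CCAAT match and 9 had at least 2. Mvk and Mmab are both among the 13 and hold the same 5 matches in the 259 bases their windows share. Of the 11 members that fell in neither genotype, 8 had a match and 5 had at least 2. The 3 without one were Aacs, Acat2 and Scap. The share of all genes with at least 2 matches was not counted. Both sets of genes therefore held the letters, and a match describes the letters and not binding.

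Signals below are given as log2 of the scanner's processed signal after subtraction of the array's 75th percentile, so that 0 is the 75th percentile of all probes on that array. They are always given with the wild type first and the knockout second, and within each genotype with the normal diet before the high-fat diet. A signal of one gene is not set against that of another, since probes differ in brightness. A gene is said to have risen or fallen when the difference of 2 arrays reached 2-fold, which is 1 on the log2 scale. The scanner's error model gave such differences an error of 0.20 to 0.22 for the members, which covers the spot measurement and not the spread between animals. In whole liver RNA, fewer cells of a type and less RNA per cell cannot be told apart.

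Catalase itself was checked first. Its brighter probe read 4.89, 4.75, 1.13 and 0.95, which is 13.5-fold lower in the knockout on normal diet and 14.0-fold lower on high-fat diet. A second probe was lower by 17.9-fold and 20.9-fold. Where these probes lie relative to the deleted part of the gene is not given in the sources used here. Across the arrays, 60.3% to 63.9% of 39429 probes were well above background and no spot was saturated. All 4 arrays lay on 1 slide and were scanned together, so neither slide nor scan separates the groups.

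In wild-type liver the high-fat diet went with lower signals along most of the pathway. By the 2-fold rule 14 of the 28 members fell and none rose, where 2.31% of all genes tested fell and 1.78% rose. The median difference over the members was -0.98, beside -0.02 over all genes. Below 0 were 24 of 28 members and 7457 of all 13730 genes measured. In knockout liver 12 members fell and none rose, where 1.64% of all genes fell and 4.22% rose. The median was -0.88, beside -0.07 over all genes. Below 0 were 27 of 28 members and 8342 of all 13876 genes measured. The diet comparisons share no array. Of the members, 10 fell in both (35.7%), where 0.387% of all genes fell in both. These 10 are 71.4% of the members that fell in wild type and 83.3% of those that fell in the knockout, and over all genes the same shares were 23.1% and 29.6%. The 10 were Hmgcs1, Pmvk, Idi1, Fdps, Fdft1, Sqle, Cyp51, Msmo1, Nsdhl and Rdh11. On their brightest probes Mvk, Mvd, Lss and Dhcr7 passed the rule in wild type alone, and Tm7sf2 and Mmab in the knockout alone. For some of these the genotype depends on the probe or the scaling. Second probes of Mvk and Tm7sf2 passed in both genotypes. With arrays scaled to their medians Dhcr7 passed in the knockout (-1.07) and not in wild type (-0.96). At a looser rule of 1.5-fold, 21 members fell in wild type and 22 in the knockout, where 6.51% and 5.68% of all genes fell. Since the members were chosen with earlier results of these data known, these shares are no independent evidence.

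**Figure D2:**
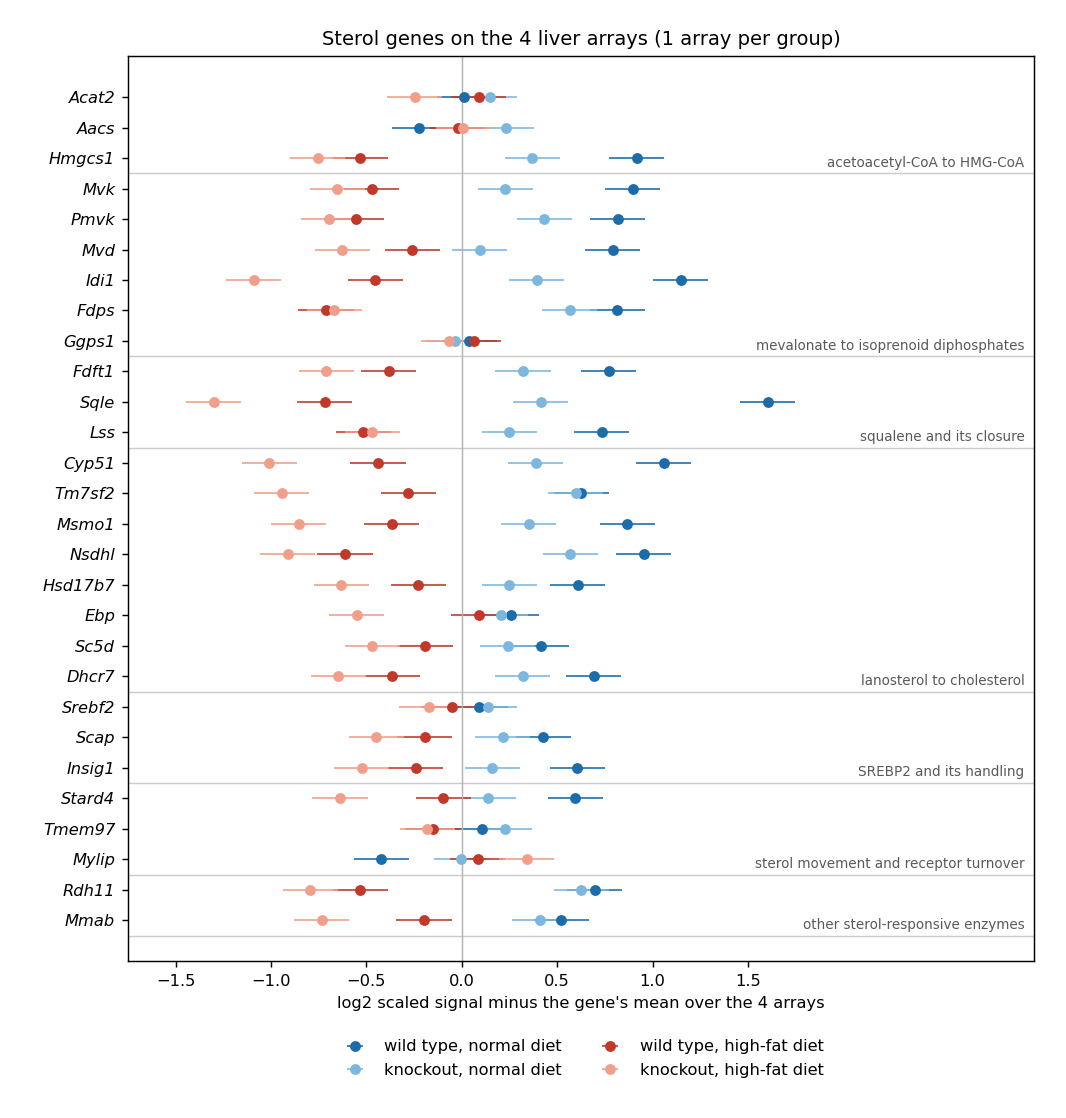
Log2 scaled signal of each of the 28 members on the 4 arrays, minus the member's own mean over the 4, with bars for the scanner error of a single array and members grouped by pathway step. Both normal-diet points lie above both high-fat points for 24 of the 28 members, and the knockout on high-fat diet is lowest for 24. The first pattern held for 27.9% of 13547 genes measured on all 4 arrays, and the second was not counted over all genes.

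The steps before mevalonate did not move as one. Acat2, the cytosolic thiolase that joins 2 acetyl-CoA molecules, read 4.68, 4.75, 4.81 and 4.42. Aacs, which makes acetoacetyl-CoA from acetoacetate, read 3.61, 3.81, 4.06 and 3.84. For neither gene did any comparison reach 1.5-fold. Hmgcs1, the cytosolic HMG-CoA synthase whose promoter is printed above, read 5.99, 4.54, 5.44 and 4.32. Both high-fat arrays were below both normal-diet arrays, and Hmgcs1 fell 2.73-fold in wild type and 2.18-fold in the knockout. With quantile or cyclic loess normalization the fall in the knockout came out under 2-fold, and the same held there for Pmvk and Fdft1.

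Of the 6 genes from mevalonate to isoprenoid diphosphates, 5 fell in wild type and 3 in the knockout. Mvk, which phosphorylates mevalonate, read 3.68, 2.31, 3.01 and 2.13, a 2.58-fold fall in wild type and a 1.84-fold difference in the knockout. Its second probe differed by -1.40 in wild type and -1.04 in the knockout, so the 2 probes lie on either side of the 2-fold rule in the knockout. Pmvk, the next kinase, read 5.15, 3.78, 4.76 and 3.63 and fell 2.59-fold and 2.19-fold in wild type and knockout. Both probes of Pmvk gave differences within 0.05 of each other. Mvd, the decarboxylase that makes isopentenyl diphosphate, read 0.81, -0.24, 0.11 and -0.61. It fell 2.07-fold in wild type, which is the smallest fall that passed the rule there, and its difference in the knockout was 1.65-fold.

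Idi1, the isomerase of the first isoprenoid unit, read 5.07, 3.47, 4.31 and 2.83. The 4 arrays are well apart for this gene, with the wild-type normal-diet array highest and the knockout high-fat array lowest at 21.2% of it. Idi1 fell 3.03-fold in wild type and 2.79-fold in the knockout. Fdps, farnesyl diphosphate synthase, read 6.53, 5.0, 6.28 and 5.04. Its 2 high-fat arrays differed by 0.04, less than the scanner error, and it fell 2.88-fold in wild type and 2.36-fold in the knockout. Ggps1 makes geranylgeranyl diphosphate, the branch that leads to protein prenylation and away from sterols. It read -0.32, -0.29, -0.39 and -0.42, and no pair of its arrays differed by more than the scanner error.

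All 3 genes that make squalene and close it fell in wild type. Fdft1, squalene synthase, read 3.44, 2.29, 2.99 and 1.96 and fell 2.23-fold in wild type and 2.04-fold in the knockout. A second, much dimmer probe of Fdft1, not well above background in wild type on high-fat diet, differed by 0.11 ± 0.33 in the knockout. Sqle, the epoxidase that adds oxygen to squalene and a rate-limiting step, showed the largest diet differences of any member in both genotypes. It read 4.07, 1.75, 2.88 and 1.16, and the 2 closest arrays, both on high-fat diet, were 0.58 apart. The fall was 4.99-fold in wild type and 3.29-fold in the knockout. Sqle ranked 13th from the largest fall among 13730 genes measured on both wild-type arrays, and 29th among 13876 in the knockout. Lss, which closes the ring to lanosterol, read 1.44, 0.18, 0.95 and 0.23. Its 2 high-fat arrays were 0.05 apart, and it fell 2.38-fold in wild type against a difference of 1.64-fold in the knockout.

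From lanosterol to cholesterol, 8 genes were read and 4 fell in each genotype. Cyp51, the lanosterol demethylase, read 1.12, -0.38, 0.44 and -0.95 and fell 2.83-fold and 2.63-fold in wild type and knockout. Msmo1, which oxidizes the methyl groups at carbon 4, read 5.67, 4.44, 5.16 and 3.95 and fell 2.35-fold and 2.31-fold. Nsdhl, which acts with it, read 2.44, 0.88, 2.06 and 0.58 and fell 2.96-fold and 2.79-fold. For these 3 genes the diet differences of the 2 genotypes lay close together, 0.03 to 0.10 apart on the log2 scale. Hsd17b7, the ketoreductase of the same step, read 2.00, 1.17, 1.64 and 0.76, a difference of 1.78-fold in wild type and 1.84-fold in the knockout, so it missed the rule in both. Its 2 probes gave nearly the same values.

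Tm7sf2, a sterol reductase also known as DHCR14, read 5.89, 4.98, 5.86 and 4.32. The 2 normal-diet arrays differed by 0.03, and the knockout high-fat array stood lowest. It fell 2.91-fold in the knockout, where the wild-type difference was 1.88-fold. A second probe gave -1.02 in wild type and -1.66 in the knockout, so on that probe the rule was passed in both genotypes. Ebp, the isomerase that shifts the sterol ring's double bond, read 6.78, 6.61, 6.72 and 5.97. Only the array of the knockout on high-fat diet was set apart from the other 3, and its difference from the knockout on normal diet was 1.69-fold. Sc5d, the desaturase that follows, read 5.88, 5.27, 5.70 and 4.99, with differences of 1.52-fold and 1.64-fold. Dhcr7, which reduces the last double bond in one route to cholesterol, read 2.04, 0.99, 1.67 and 0.71. It fell 2.08-fold in wild type and came to 1.95-fold in the knockout.

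Of the 3 genes of SREBP2 and its handling, none passed 2-fold on its brightest probe. Srebf2, which encodes SREBP2, read -2.62, -2.76, -2.57 and -2.88, with differences of -0.14 in wild type and -0.31 in the knockout. A dimmer second probe gave 0.25 ± 0.25 and 1.16 ± 0.25, so the 2 probes of Srebf2 disagree on the direction in the knockout and no direction is given for the gene. Scap, the escort protein, read 4.79, 4.17, 4.58 and 3.91, with differences of 1.54-fold and 1.58-fold. Insig1, the retention protein and itself an SREBP2 target, read 1.70, 0.85, 1.25 and 0.57, with differences of 1.80-fold and 1.61-fold. For Scap and Insig1 both high-fat arrays were below both normal-diet arrays.

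Among genes of sterol movement and receptor turnover, none passed 2-fold on its brightest probe. Stard4, a cytosolic sterol carrier, read 2.97, 2.28, 2.52 and 1.74, with diet differences of -0.69 in wild type and -0.78 in the knockout. Its second probe gave -0.96 and -1.18. Tmem97, a membrane protein of sterol handling, read 3.39, 3.13, 3.51 and 3.11, with differences of -0.26 and -0.40. Mylip encodes a ubiquitin ligase that marks lipoprotein receptors for degradation and is switched on by the oxysterol receptor LXR. It was the member with higher signals on high-fat diet in both genotypes, reading -0.34, 0.17, 0.08 and 0.43, and the differences of 1.42-fold and 1.27-fold did not pass the rule. A second, dimmer probe of Mylip gave 0.09 ± 0.30 in wild type and 0.35 ± 0.25 in the knockout.

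Rdh11 and Mmab are sterol-responsive genes outside the synthesis chain. Rdh11, a retinal reductase, read 3.06, 1.83, 2.99 and 1.57. Its 2 normal-diet arrays lay 0.07 apart, and it fell 2.34-fold in wild type and 2.68-fold in the knockout. Mmab read 0.42, -0.30, 0.31 and -0.83, with a difference of 1.65-fold in wild type and a fall of 2.21-fold in the knockout. The 3 probes of Mmab agreed in wild type, between -0.73 and -0.72, and ranged from -1.14 to -0.35 in the knockout, so the call there rests on the brightest probe.

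**Figure D3:**
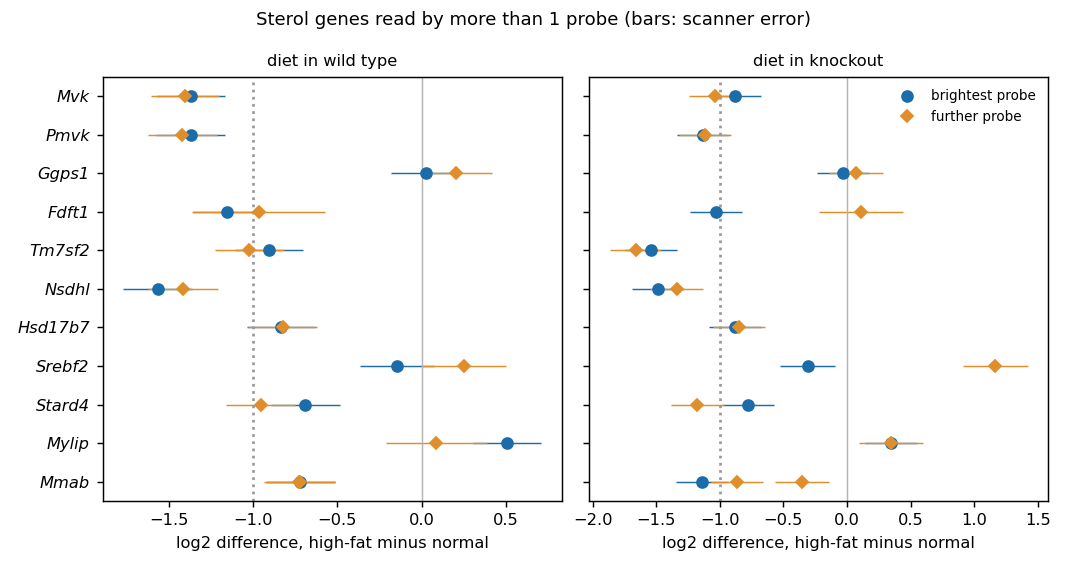
Diet difference (log2, high-fat minus normal) of the 11 members read by 2 or 3 probes, in wild type and in knockout, with the scanner error of each difference as bars and a dotted line at 2-fold lower. The further probes of Srebf2 (1.16) and Fdft1 (0.11) in the knockout stand apart from their brightest probes.

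The diet difference of each member was then compared between genotypes. The difference of the 2 diet differences, knockout minus wild type, was above 0 for 14 members and below 0 for 14. Its median was -0.01, beside -0.04 over 13547 genes measured on all 4 arrays, and no member reached 2-fold. The largest values were 0.60 for Sqle, 0.53 for Lss and 0.49 for Mvk on one side, where the wild type differed more with diet. On the other side stood -0.63 for Tm7sf2, -0.59 for Ebp and -0.47 for Acat2, where the knockout did. The scanner error of such a value was 0.29 for these genes, and without replicates the difference between genotypes was not tested. Over 8 other processing settings Sqle ranged from 0.41 to 0.69 and Tm7sf2 from -0.83 to -0.51, with the same sign throughout.

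**Figure D4:**
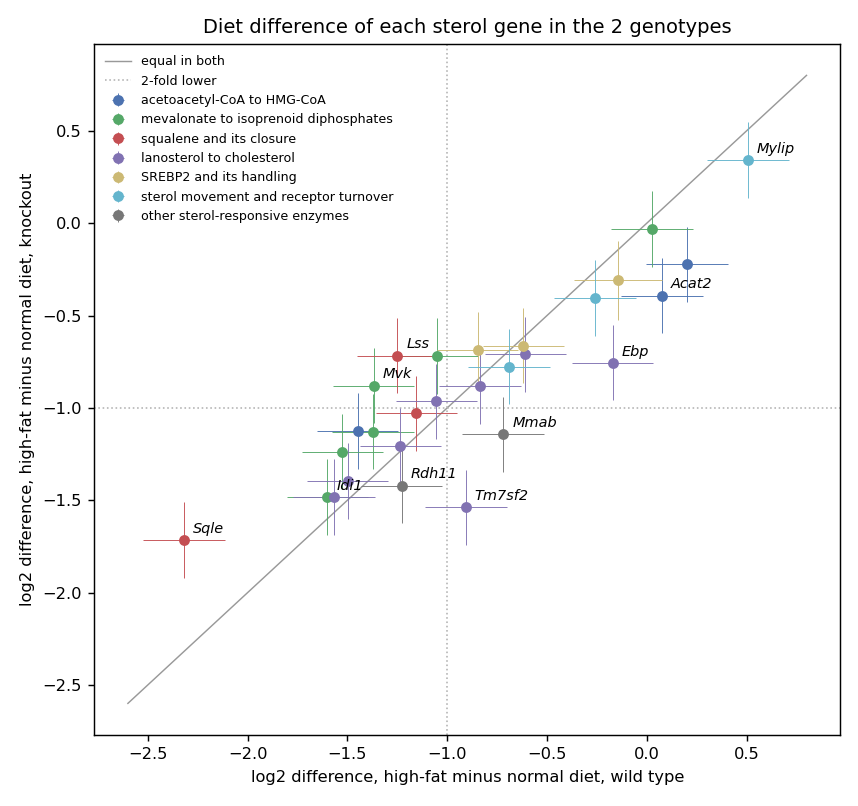
Log2 diet difference (high-fat minus normal) of each of the 28 members in wild type (horizontal) and knockout (vertical), coloured by pathway step, with scanner errors as bars, a line of equality and dotted lines at 2-fold lower. Sqle (-2.32 and -1.72) lies lowest on both axes, Tm7sf2 and Ebp lie below the line, and Mylip is above 0 on both.

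Between genotypes on the same diet the members differed less. On normal diet 1 member, Sqle, was 2-fold lower in the knockout (2.28-fold), where 2.5% of all genes fell and 1.4% rose. Differences below 0 were seen for 23 of 28 members and for 7158 of all 13776 genes measured. The median over the members was -0.37, beside -0.01 over all genes. With arrays scaled to their medians it was -0.22, beside 0.13 over all genes. Under the 1.5-fold rule 5 members were lower, namely Sqle, Idi1, Mvd, Mvk and Cyp51, where 6.65% of all genes fell. Idi1 read 1.69-fold lower and Mvd 1.62-fold lower. On high-fat diet no member passed 2-fold, where 1.59% of all genes fell and 2.51% rose. The median was -0.28, beside -0.04 over all genes. Below 0 were 24 of 28 members and 7873 of all 13825 genes measured. At 1.5-fold 3 members, Idi1, Tm7sf2 and Ebp, were lower, where 4.36% of all genes fell. These genotype comparisons use the same 4 arrays as the diet comparisons, so they are no independent evidence of the order of the arrays.

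The 4 arrays can be ordered for each member. The wild type on normal diet was highest for 22 of 28 members, and the knockout on high-fat diet was lowest for 24. How often these arrays were highest or lowest over all genes was not counted. Both normal-diet arrays stood above both high-fat arrays for 24 members, the exceptions being Acat2, Aacs, Ggps1 and Mylip. The same held for 27.9% of 13547 genes measured on all 4 arrays. The full order, from the wild type over the knockout on normal diet to the wild type and then the knockout on high-fat diet, was seen for 20 of 28 members and for 1561 of those 13547 genes. Among these 20 the middle pair of arrays was closest for Ebp, at 6.72 and 6.61, which is within the scanner error.

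**Figure D5:**
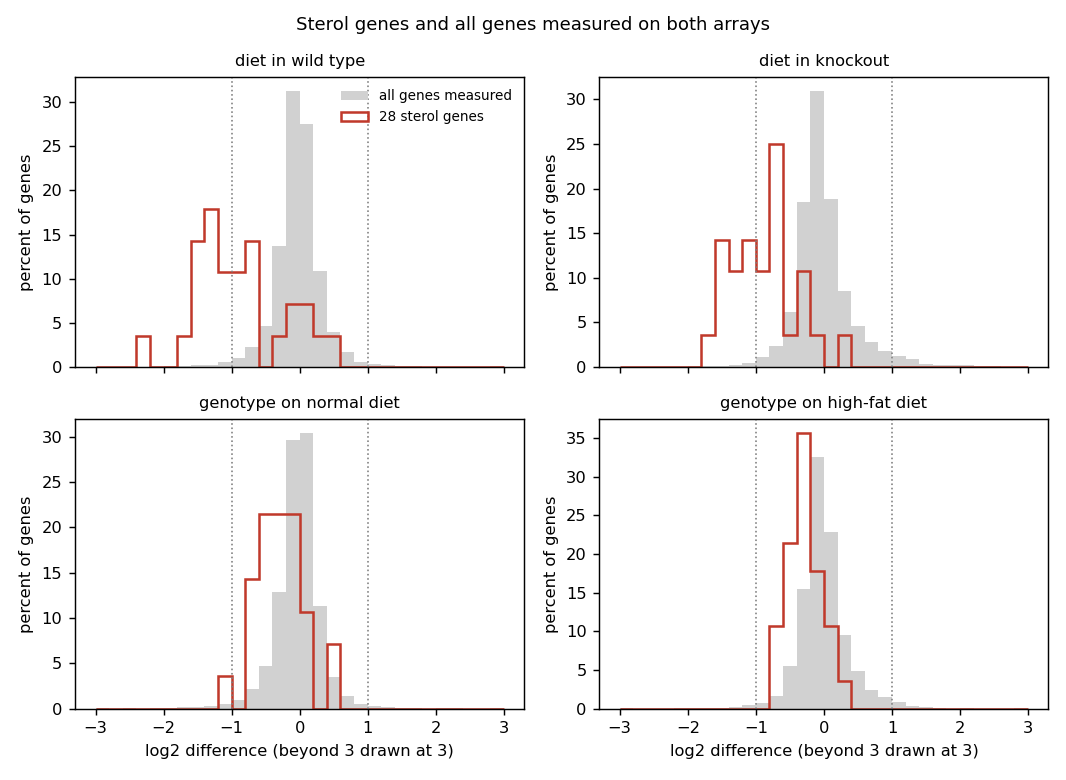
Distribution of log2 differences for the 28 members (red outline) and for all genes well above background on both arrays (grey), as percent of genes, in the 4 comparisons, with dotted lines at 2-fold. The members' medians are -0.98 and -0.88 for diet and -0.37 and -0.28 for genotype, and those of all genes lie between -0.07 and -0.01.

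A limma fit with 1 term for genotype and 1 for diet was made over 14343 genes, in which the single residual degree of freedom is the interaction. For the average diet effect no gene passed an adjusted p of 0.05 (0% called), although 1425 genes had an unadjusted p below 0.05. Of the members 21 fell with an unadjusted p below 0.05, and the lowest adjusted p among them was 0.392, shared by Idi1 and Nsdhl. The average effect was -1.54 ± 0.12 (SE) for Idi1 and -1.53 ± 0.12 for Nsdhl, and -2.02 ± 0.20 for Sqle with an adjusted p of 0.407. With arrays scaled to their medians the same fit called 12 members as fallen, where 1.12% of all genes fell (160 fell and 217 rose of 14343). That setting moved the median difference of diet effects over all genes from -0.04 to -0.24. The fit's error for a gene mixes its own difference of diet effects with a value pooled over all genes. The weight of the pooled value, the prior degrees of freedom, was 2.17 in the main fit beside the 1 residual degree of freedom. Under median scaling it was infinite, so every gene had the same pooled error. The part of the shift of the median in the calls was not tested.

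Other genes of sterol and lipid metabolism showed smaller or mixed differences, counted on lists chosen by function. Of 13 genes of the isoprenoid branch after farnesyl diphosphate, of 14 genes of sterol efflux, storage and trafficking, and of 5 mitochondrial HMG-CoA and ketone genes, none passed 2-fold in any of the 4 comparisons. Their medians lay between -0.09 and 0.06 for the first 2 lists in both diet comparisons. The ketone genes had a median of 0.52 in wild type and 0.02 in the knockout with diet. Among 9 measurable SREBP-processing and oxysterol genes 1 fell with diet in both genotypes. It was Cyp7b1, an oxysterol hydroxylase of bile acid synthesis, which read 6.21, 5.21, 5.24 and 4.14 and was also lower by 1.06 in the knockout on high-fat diet. Insig2 and the proteases that cleave SREBP, Mbtps1 and Mbtps2, did not pass 2-fold in any comparison.

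Genes of fatty acid synthesis, targets of the related factor SREBP1, were read as a further list. Of 11 such genes 1 fell with diet in each genotype. This was Acss2, the cytosolic acetyl-CoA synthetase that supplies the first building block, at 5.08, 3.70, 5.24 and 3.64. The median of the list was -0.34 with diet in wild type and -0.17 in the knockout. On normal diet the differences of all 11 were above 0 in the knockout relative to wild type, as were those of 6618 of all 13776 genes measured, but 8 of the 11 lay within the scanner error and the median was 0.15. The gene past 2-fold was Me1, malic enzyme, at 4.37 in wild type and 5.41 in the knockout.

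Markers of liver cell types were read on the same arrays, as the sum of scaled signals on a linear scale where 1 is the 75th percentile. The 9 hepatocyte markers summed to 3208, 3035, 2944 and 2474 in the order of arrays used above. The 9 macrophage and Kupffer cell markers summed to 38.4, 46.2, 31.6 and 83.5, and the 10 stellate cell and matrix markers to 55.6, 62.0, 48.2 and 73.5. The stellate sum is mostly Dcn, at 5.67, 5.81, 5.47 and 5.93 on the log2 scale. Taken singly, 2 of those 10 markers rose with diet in wild type and 4 in the knockout, and none fell. Over all genes 1.78% and 4.22% rose. All hepatocyte and macrophage markers were well above background on every array. The sum of the 8 endothelial markers ranged from 39.3 to 43.1. Of 4 adipocyte markers Adipoq, Plin1 and Lep were not well above background on any array, and with Cfd, the one that was measured, the list summed to 0.52, 3.30, 0.39 and 4.44. The knockout on high-fat diet, lowest for most sterol genes, thus had the lowest hepatocyte sum and the highest macrophage sum. In wild type, where 14 members fell, the median difference of the hepatocyte markers was -0.09. In the knockout it was -0.25, and 1 of the 9, the urea-cycle gene Cps1, passed 2-fold at -1.10. The part of cell make-up in the sterol values was not tested.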

How the data were processed

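Liver RNA of 4 groups was hybridised to 1 single-colour array each. The deposited scanner files hold spot intensity from Feature Extraction 11.5.1.1, per the file headers, as a background-subtracted processed signal. The deposited value table holds the same intensity on a linear scale, within 1% for 99.7% of probes on each array. The authors extracted data with GeneSpring, per the labels' design text; how these were scaled or tested is not given in the sources used here.

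Outlier spots and control spots were left out, the rest averaged per probe as log2 of the deposited signal, and arrays were scaled by subtracting the 75th percentile of their 39429 probes. Names came from RefSeq accessions (GRCm38.p6) for 27502 probes. The brightest of a gene's probes stood for it. Where 1 of 2 arrays was not well above background, that array took the larger of its lowest detected signal and the probe's own. The rule was 2-fold. All 28 members were named, and of other lists up to 3 genes past 2-fold each. Mbtps1, Mbtps2, Insig2, the catalase gene and some cell type markers were named besides. Members and lists were chosen with earlier results of these data known. The additive fit used limma 3.58.1 in R 4.3.3 with Benjamini-Hochberg adjustment. Python 3.11.15, numpy 2.4.6, pandas 2.3.3 and matplotlib 3.10.9 did the rest. Both procedures were run on simulated data with changes well past the 2-fold rule and the same small noise for every gene. Such a check could hardly fail and says little about their performance on these arrays. With 1 array per group, the fit's p-values rest on the interaction of genotype and diet, which also holds array noise that may be technical. They do not measure the spread between animals.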

Additional observations from a re-analysis of the deposited data

Results flagged for a closer look

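Some members had differences of opposite sign in the compared groups, which were not tested because each group had 1 array. Diet differences were opposite in the 2 genotypes for Acat2 (0.07 in wild type and -0.39 in the knockout, a difference of -0.467), Aacs (0.20 and -0.22, a difference of -0.425) and Ggps1 (0.03 and -0.03, a difference of -0.0569). Genotype differences were opposite on the 2 diets for Fdps (-0.25 on normal and 0.04 on high-fat diet, a difference of 0.289), Lss (-0.49 and 0.05, a difference of 0.534), the brightest probe of Srebf2 (0.04 and -0.12, a difference of -0.166) and Tmem97 (0.12 and -0.03, a difference of -0.145). The scanner error of such a difference was 0.29 to 0.31, so those of Ggps1, Srebf2 and Tmem97 lay within it and that of Fdps equalled it. The second probe of Srebf2 gave the opposite signs, -0.40 on normal and 0.51 on high-fat diet.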

How the results depend on the processing

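No paired analysis was possible because each group had 1 array, and for the same reason no array could be left out. Over 8 settings at 2-fold, the number of members that fell was 12 to 14 with diet in wild type and 9 to 13 in the knockout, and between genotypes it was 1 on normal and 0 on high-fat diet in each; no member rose in any of them. Under the 1.5-fold rule 22 members fell with diet in the knockout, 5 between genotypes on normal diet and 3 on high-fat diet. The additive limma fit called 12 members (and 160 of 14343 genes) as fallen under median scaling, where its prior degrees of freedom were infinite, and 0 under quantile normalization, the stricter filter and the intensity trend. No called value reversed. Settings that kept flagged spots, used the deposited value table or required detection on all 4 arrays barely altered member signals. They could hardly change a call, so their agreement adds little. Of 216 called values of single genes over the 8 settings, 204 stayed past 2-fold. Mvd and Dhcr7 in wild type came under it with median scaling and with normexp, and Fdft1 and Mmab in the knockout with the mean of all probes. Median scaling also brought Dhcr7 past 2-fold in the knockout, the only call gained. Median scaling moved all genes by 0.09 and -0.11 (diet, wild type and knockout) and 0.14 and -0.06 (genotype, normal and high-fat diet), and the split of all genes fallen and risen with diet in wild type from 338 and 261 to 280 and 304, in the knockout from 245 and 629 to 323 and 510, and between genotypes on normal diet from 368 and 206 to 285 and 264. Fewer genes were counted with normexp (152 fell with diet in wild type) and with the filter to all 4 arrays (173). Normexp was run on median spot signals, a choice made after seeing the data, since the scanner files hold no mean-signal column, which had been planned for it. For dim probes the limit is signal over background: the scanner error rose to 0.39 for the dimmer Fdft1 probe.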
